A study of Rattus norvegicus with 11 samples.

Results

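A set of 10 genes that sense bacterial products or form the inflammasome was followed in the ileum of rats with severe acute pancreatitis (SAP). They are Lbp, Cd14, Tlr4, Tlr2, Myd88, Nod2, Card9, Nlrp3, Casp1 and Gsdmd, chosen by their symbols, and 10 of 10 were found among 24481 genes with read counts. Card9, which carries signals of receptors for microbial sugars and glycolipids, was highest in the control group, lower in the SAP group and lowest in the JZL184 group, with no overlap between any 2 groups. Of all genes tested, 8.65% were lower without overlap in SAP against control, 6.53% in JZL184 against SAP and 18.1% in JZL184 against control. Card9 was the 1 gene of the 10 that passed the test, between the JZL184 and control groups. In that comparison, with n = 2 control samples, 2.16% of all genes tested passed. Casp1, the protease of the inflammasome, had its highest values in the SAP group and its lowest in the JZL184 group. Tlr2, Tlr4, Lbp and Nod2 were low in every group, and each had all SAP and JZL184 values above all control values. Higher values without overlap were found in 13.4% of all genes tested in SAP against control and 18.5% in JZL184 against control.

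RNA of ileal tissue was sequenced from SD rats aged 6 to 8 weeks, described by the study as male. SAP was induced by injecting 3% sodium taurocholate backwards into the pancreatic duct. Rats were assigned to the groups 24 h after surgery, and were killed 24 h after an intraperitoneal injection. The control group (3 libraries) and the SAP group (4 libraries) received vehicle, a mixture of saline, ethanol and Tween-80, and the JZL184 group (4 libraries) had SAP and received 10 mg/kg JZL184, an inhibitor of monoacylglycerol lipase (MAGL), the enzyme that breaks down a major endocannabinoid. Whether control rats underwent sham surgery with an injection into the duct is not stated for these libraries, and the sample labels write "control plasmid" and, in the titles of the SAP libraries, "oil". All groups share strain, age and sampling time. There was no JZL184 group without SAP, so that the drug was seen on the background of pancreatitis alone.

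These genes belong to a chain of innate sensing. LBP takes up bacterial lipopolysaccharide and hands it to CD14, which presents it to the receptor TLR4, whereas TLR2 binds bacterial lipoproteins. MYD88 is the adaptor that passes signals of nearly all Toll-like receptors to the nuclear factor kB pathway. NOD2 senses a fragment of peptidoglycan inside the cell. CARD9 joins with BCL10 and MALT1 below C-type lectin receptors such as Dectin-1 (gene Clec7a) and Mincle (gene Clec4e). NLRP3 assembles with the adaptor ASC (gene Pycard) into an inflammasome that activates caspase-1. Caspase-1 cleaves the precursors of interleukins and gasdermin D (gene Gsdmd), the pore-forming protein of pyroptosis. In the ileum, this chain lies behind an epithelium that is exposed to the gut microbiota.

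Promoter sequence of RefSeq (build GRCr8, which is not the build of the files) was found for 7 of the 10 genes, and 2 motifs chosen after the sequences had been seen were searched in the 250 bases before each start on both strands. The core of the interferon-stimulated response element (GAAANNGAAA) was in the promoters of Casp1 and Myd88, 2 of 7, and in 3.41% of 33469 rat promoters. The kB consensus, the site of nuclear factor kB, was in the promoter of Tlr2, 1 of 7, and in 6.33% of all. The stretches around the matches are shown for these genes because they held a match. The mean level of Casp1 was lowest in the JZL184 group, whereas those of Myd88 and Tlr2 were both highest there. A link between the matches and these levels was not tested. The match is in capitals, and Tlr2 held 3 matches, of which the one shown overlaps a second.
Casp1, chr8:10872770-10872829, plus strand: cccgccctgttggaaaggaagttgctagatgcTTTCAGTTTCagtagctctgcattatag
Myd88, chr8:127956231-127956290, minus strand: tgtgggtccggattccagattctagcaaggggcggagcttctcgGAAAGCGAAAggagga
Tlr2, chr2:171504728-171504787, minus strand: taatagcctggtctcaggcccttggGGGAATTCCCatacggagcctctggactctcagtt
The match lay 28 to 19 bases before the start of Casp1, on the strand opposite to the gene, 16 to 7 bases before that of Myd88 and 205 to 196 bases before that of Tlr2. Card9 had the largest fold change of the 10, and its 250 bases before the start are shown whole. Neither motif was found in them.
Card9, chr3:29578403-29578652, minus strand: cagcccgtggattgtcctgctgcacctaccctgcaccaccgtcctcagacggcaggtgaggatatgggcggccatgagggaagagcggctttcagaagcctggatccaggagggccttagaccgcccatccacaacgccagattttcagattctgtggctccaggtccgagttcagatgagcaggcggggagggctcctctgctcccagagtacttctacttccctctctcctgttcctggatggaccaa
These matches are descriptions of letters, not of bound sites.

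Between 26341299 and 33847135 reads per library lay on genes. Control libraries 1 and 2 differed far less than any other pair of one group, with a chi-square per gene of 2.81 against 77.48 to 563.03, and were counted as 1 sample, so that the control group had n = 2. SAP libraries 1 and 2 stood apart, with 40.3% and 41.0% of their reads on genes longer than the median against 23.9% to 29.7% in the other 9 libraries. SAP library 2 held 20 reads on Y-linked genes (1222 to 4665 in the others) and 7826 reads of Xist (at most 56 in the others), which does not match rats described as male. The labels name intestinal epithelial cells, but the libraries held muscle, stromal and blood cell RNA beside epithelial RNA. Epithelial markers (10 of 10 found) summed to 16067 to 19931 FPKM in the control group, 8839 to 13975 in the SAP group and 9083 to 11529 in the JZL184 group. FPKM are fragments scaled by gene length and library size. Markers of ileal enterocytes (6 of 6) summed to 28869 to 30755, 5217 to 18130 and 364 to 15966 FPKM in the same order, with the 364 in JZL184 library 3. In bulk tissue, fewer cells of a type and less RNA per cell cannot be told apart.

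**Figure D1:**
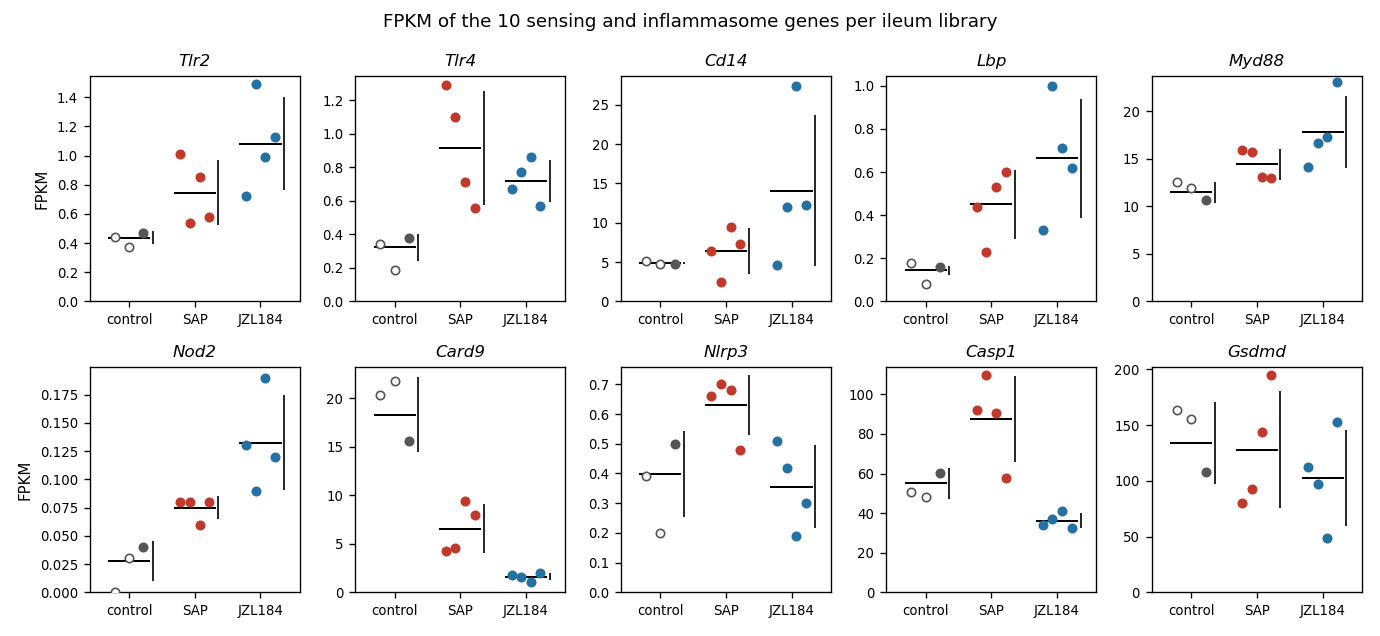
FPKM of the 10 genes in each library of the control, SAP and JZL184 groups, with the mean (line) and SD (vertical bar) of the samples used. Open circles are control libraries 1 and 2, which were averaged to 1 sample. Card9 descends from 15.58 to 21.76 in the control group to 1.09 to 1.98 in the JZL184 group. Tlr2, Tlr4, Lbp, Myd88 and Nod2 lie above the control values in the other groups.

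Levels differed widely among the 10 genes. On the FPKM scale, Gsdmd was the most abundant in the control group with 134.0 ± 36.7 (SD, n = 2), followed by Casp1 with 55.0 ± 7.82, Card9 with 18.3 ± 3.87, Myd88 with 11.5 ± 1.12 and Cd14 with 4.85 ± 0.148. Tlr2, Nlrp3, Tlr4, Lbp and Nod2 had mean levels between 0.0275 and 0.4375 FPKM. In the JZL184 group, Card9 had dropped below Myd88 and Cd14, to 1.61 ± 0.391 FPKM (SD, n = 4).

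For SAP against control, 0 of the 10 genes were called by edgeR (adjusted p under 0.05 and a fold over 2 or under 0.5), where 0% of 16029 genes tested were called. All 10 passed the filter on low counts in each comparison. DESeq2 and limma-voom also called 0 of 10, against 1.23% and 0.0873% of all genes tested. At an unadjusted p below 0.05 there were 3 of 10 (Tlr4 and Lbp higher, Card9 lower), against 9.09% of all genes (5.69% higher and 3.4% lower). The FPKM did not overlap for 5 genes that were higher in the SAP group (Tlr2, Tlr4, Lbp, Myd88 and Nod2), against 13.4% of all genes, and for 1 that was lower (Card9), against 8.65%. The median log2 fold change of the 10 was 0.51, beside 0.06 over all genes tested.

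For JZL184 against SAP, edgeR called 0 of 10, against 0% of 15308 genes tested. The smallest adjusted p of any gene in the table was 0.0604 there and 0.0967 between the SAP and control groups. DESeq2 and limma-voom each called 2 of the 10, Card9 and Casp1, both lower, against 6.98% and 4.57% of all genes tested. At an unadjusted p below 0.05 there were 4 of 10 (Nod2 and Cd14 higher, Card9 and Casp1 lower), against 21.3% (10.3% higher and 11.1% lower). There was no overlap for 1 gene that was higher (Nod2), against 4.7%, and for 2 that were lower (Card9 and Casp1), against 6.53%. The median log2 fold change of the 10 was 0.16, beside -0.05 over all genes.

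For JZL184 against control, edgeR called Card9 alone, 1 of 10, against 2.16% of 15916 genes tested (1.02% higher and 1.14% lower). DESeq2 called 3 of 10 (Lbp, Nod2 and Card9) against 10.8%, and limma-voom 4 of 10 (these and Tlr2) against 18.3%. At an unadjusted p below 0.05 there were 7 of 10, of which 5 were higher and 2 lower, against 26.3% (13.8% higher and 12.5% lower). There was no overlap for 5 genes that were higher (Tlr2, Tlr4, Lbp, Myd88 and Nod2), against 18.5%, and for 2 that were lower (Card9 and Casp1), against 18.1%. The median log2 fold change was 0.86, beside 0.08 over all genes. The comparisons with the control group share its libraries, and both comparisons of the SAP group share the SAP libraries.

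**Figure D2:**
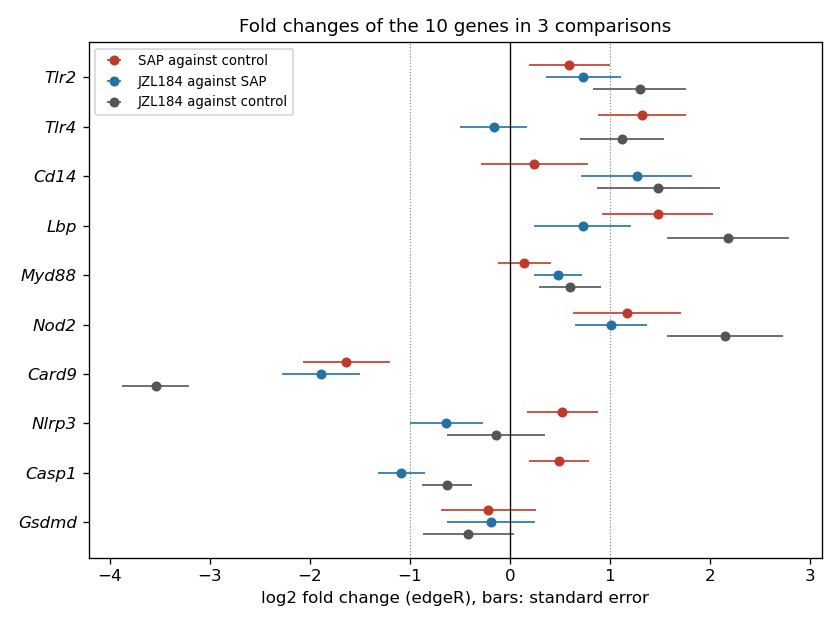
Log2 fold changes of the 10 genes from edgeR (x axis) in each of the 3 comparisons, with bars for the standard error and dotted lines at the 2-fold thresholds. Card9 lies left of the threshold in all 3 comparisons, and Casp1 lies right of 0 between the SAP and control groups and left of it in both comparisons of the JZL184 group.

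Among the genes of lipopolysaccharide handling, Lbp, which encodes the serum and tissue protein that extracts lipopolysaccharide, had 0.18, 0.08 and 0.16 FPKM in the control libraries. The SAP libraries had 0.44, 0.23, 0.53 and 0.60 FPKM, and the JZL184 libraries 0.33, 1, 0.71 and 0.62. All 8 libraries of rats with SAP were above all control libraries, and the SAP and JZL184 groups overlapped. The log2 fold change was 1.48 ± 0.56 (SE) between the SAP and control groups (edgeR adjusted p = 0.459) and 2.18 ± 0.61 between the JZL184 and control groups (edgeR adjusted p = 0.0848, DESeq2 adjusted p = 0.00878). For JZL184 against SAP it was 0.73 ± 0.48 (edgeR adjusted p = 0.385).

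Cd14 encodes the co-receptor of TLR4 on myeloid cells. It had 5.11, 4.79 and 4.74 FPKM in the control group, 6.35, 2.43, 9.42 and 7.24 in the SAP group, and 4.59, 12.03, 27.43 and 12.21 in the JZL184 group. JZL184 library 3, the library lowest in enterocyte markers, had the highest value, and the groups overlapped in every comparison. The log2 fold change was 1.27 ± 0.56 between the JZL184 and SAP groups (edgeR adjusted p = 0.228) and 1.49 ± 0.61 between the JZL184 and control groups (edgeR adjusted p = 0.169). Between the SAP and control groups it was 0.25 ± 0.54 (edgeR adjusted p = 0.817), and -0.43 without SAP libraries 3 and 4.

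Tlr4, the lipopolysaccharide receptor, had 0.34, 0.19 and 0.38 FPKM in the control group, 1.29, 1.10, 0.71 and 0.56 in the SAP group and 0.67, 0.77, 0.86 and 0.57 in the JZL184 group. The control values lay below all others, and the SAP and JZL184 values overlapped. The log2 fold change against the control group was 1.32 ± 0.44 in the SAP group (edgeR adjusted p = 0.459) and 1.12 ± 0.42 in the JZL184 group (edgeR adjusted p = 0.143). SAP libraries 1 and 2 had the 2 highest values of Tlr4. With these 2 alone as the SAP group, Tlr4 was called by edgeR (adjusted p = 0.0105). In that setting 5859 of all genes were called, against 0 with all SAP libraries. For JZL184 against SAP the log2 fold change was -0.16 ± 0.33 (edgeR adjusted p = 0.792), and 0.23 without SAP libraries 1 and 2.

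Tlr2, the lipoprotein receptor, had 0.44, 0.37 and 0.47 FPKM in the control group, 1.01, 0.54, 0.85 and 0.58 in the SAP group and 0.72, 1.49, 0.99 and 1.13 in the JZL184 group. The order of the means was control, SAP and JZL184, and the last 2 groups overlapped. Its log2 fold change was 0.60 ± 0.41 between the SAP and control groups (edgeR adjusted p = 0.487) and 0.74 ± 0.38 between the JZL184 and SAP groups (edgeR adjusted p = 0.277). Between the JZL184 and control groups it was 1.30 ± 0.46 (edgeR adjusted p = 0.13, limma-voom adjusted p = 0.0342).

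Myd88, the shared adaptor, changed by a fold of less than 2 in every comparison. Its FPKM were 12.56, 11.94 and 10.67 in the control group, 15.88, 15.69, 13.07 and 12.98 in the SAP group and 14.08, 16.65, 17.31 and 23.06 in the JZL184 group. The FPKM of the SAP group lay above those of the control group, but the counts scaled to library size overlapped. The JZL184 values of Myd88 lay above all control values on both scales. Its log2 fold changes were 0.15 ± 0.27, 0.48 ± 0.24 and 0.60 ± 0.31 for SAP against control, JZL184 against SAP and JZL184 against control, with edgeR adjusted p of 0.778, 0.267 and 0.257. In the RefSeq annotation, Myd88 overlaps its neighbour Acaa1a by 105 bases. The library kit kept the strand, but whether the counting used it is not stated.

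Nod2 was close to the limit of detection. Its reads numbered 1, 9 and 13 in the control libraries, 28, 24, 16 and 26 in the SAP libraries and 43, 26, 56 and 34 in the JZL184 libraries. In FPKM, these were 0.00 to 0.04 in the control group and 0.06 to 0.08 in the SAP group. They were 0.09 to 0.19 in the JZL184 group, with no overlap between any 2 groups. The step from 0.08 to 0.09 is the smallest that 2 decimals can show, and the reads of the SAP and JZL184 groups overlapped. Scaled to library size, the counts of these 2 groups did not overlap. Between them, 4.7% of all genes tested were higher in the JZL184 group without overlap in FPKM. The log2 fold change was 1.17 ± 0.54 between the SAP and control groups (edgeR adjusted p = 0.459), 1.01 ± 0.36 between the JZL184 and SAP groups (edgeR adjusted p = 0.168) and 2.15 ± 0.58 between the JZL184 and control groups (edgeR adjusted p = 0.0786, DESeq2 adjusted p = 0.0149). With so few reads, single control samples moved these values. Without the merged control sample they were 0.68 for SAP against control and 1.65 for JZL184 against control. Without control library 3 they were 1.81 and 2.79. With gene length offsets, the log2 fold change of Nod2 for SAP against control was 0.69.

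Card9 had 20.35, 21.76 and 15.58 FPKM in the control libraries, 4.25, 4.61, 9.42 and 8.00 in the SAP libraries and 1.83, 1.55, 1.09 and 1.98 in the JZL184 libraries. The lowest control value was above the highest SAP value, and the lowest SAP value above the highest JZL184 value. The reads behind these values were 1210 to 1629 in the control group, 369 to 692 in the SAP group and 80 to 153 in the JZL184 group, so that counting error was small beside the differences. The means were 18.3 ± 3.87 (SD, n = 2), 6.57 ± 2.54 (n = 4) and 1.61 ± 0.391 FPKM (n = 4).

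Card9 fell by 3.54 ± 0.34 (SE) on the log2 scale between the JZL184 and control groups (edgeR adjusted p = 0.0085), and it had rank 6 by p among all genes tested. The adjusted p was 1.37e-14 with DESeq2 and 0.00156 with limma-voom. Leaving out the merged control sample or control library 3 left 1 control sample, which is then assumed to vary like the other group, and the edgeR adjusted p became 0.192 and 0.0596 with log2 fold changes of -3.25 and -3.80. Between the JZL184 and SAP groups, the log2 fold change was -1.89 ± 0.39 (edgeR adjusted p = 0.0851, DESeq2 adjusted p = 0.000622, limma-voom adjusted p = 0.0357). It was -2.37 without SAP libraries 1 and 2, and -1.18 without SAP libraries 3 and 4. Between the SAP and control groups it was -1.64 ± 0.44 (edgeR adjusted p = 0.459, DESeq2 adjusted p = 0.0707). It was -1.15 without SAP libraries 1 and 2, and -2.35 without SAP libraries 3 and 4 (edgeR adjusted p = 0.00119). In this last setting 5859 of all genes were called.

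In the exact permutation tests of the FPKM (two-sided, 3 comparisons of each of the 10 genes, p not adjusted), Card9 had p = 0.0667 for both comparisons with the control group and p = 0.0286 between the JZL184 and SAP groups. These are the smallest p that 4 against 2 and 4 against 4 samples allow, so that comparisons with the control group cannot pass 0.05 in this test. Casp1 and Nod2 also reached 0.0286 between the JZL184 and SAP groups, where the p of the other 7 genes lay between 0.0571 and 0.486. This smallest p is reached only where the groups do not overlap. In this comparison, 4.7% of all genes tested were higher and 6.53% lower without overlap.

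Markers of cells that express Card9 were followed beside it, because it is known mainly from myeloid cells. The 10 monocyte and macrophage markers summed to 348 to 402 FPKM in the control group, 165 to 446 in the SAP group and 106 to 307 in the JZL184 group, a sum made largely of C1qa, C1qb and C1qc. The 5 dendritic cell markers summed to 2.23 to 4.25, 3.79 to 4.41 and 1.59 to 2.31 FPKM. The first sum was lower in all JZL184 libraries than in all control libraries, and the second overlapped between these groups. Against the SAP group, the second sum was lower in all JZL184 libraries, and the first overlapped. Single markers went against the sums. Cd163 had 0.60 to 0.77 FPKM in the control group and 2.65 to 7.66 in the JZL184 group, and Mrc1 had 0.34 to 0.78 and 2.08 to 3.93, whereas Clec9a, a dendritic cell marker, had 0.18 to 0.49 and 0.03 to 0.09 without overlap. Between the SAP and control groups, both sums overlapped. The sum of the 10 neutrophil markers went the other way, from 1.30 to 2.86 FPKM in the control group, with Cxcr2 and Elane at 0 in every control library, to 8.83 to 82.95 in the SAP group and 13.56 to 251.46 in the JZL184 group. In the libraries with SAP most of it was S100a8 and S100a9, and Mpo went against the sum, with 0.33 to 0.56 FPKM in the control libraries and 0.07 to 0.30 in the others. The part of these cells in the values of Card9 was not tested. In the RefSeq annotation, Card9 overlaps Dnlz by 31 bases, and Dnlz had 25 to 27.25 FPKM in the control group, 11.29 to 19.95 in the SAP group and 15.09 to 21.99 in the JZL184 group.

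**Figure D3:**
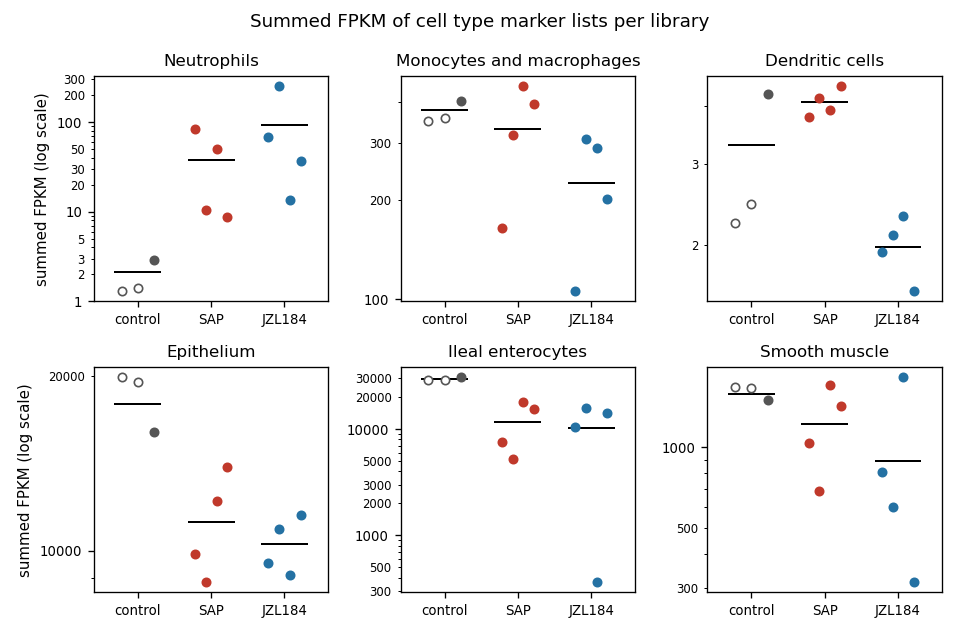
Summed FPKM (log axis) of 6 marker lists in each library, with the mean of the samples used as a line and control libraries 1 and 2 as open circles. The neutrophil sum is at most 2.86 in the control group and at least 8.83 in the other groups, the epithelial sum is at most 13975 in the libraries with SAP, and JZL184 library 3 has 364 for ileal enterocytes.

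The remaining lists were summed in the same way. T cell markers (4 of 5 found) had 99.6 to 112.7 FPKM in the control group, 35.9 to 114.4 in the SAP group and 81.8 to 101.7 in the JZL184 group. B and plasma cell markers had 184.8 to 194.7, 61.2 to 163.8 and 66.7 to 121.8, and smooth muscle markers 1496 to 1670, 690 to 1708 and 315 to 1821. Fibroblast markers had 38.3 to 52.6, 37.3 to 69.4 and 21.7 to 38.2, and endothelial markers 20.3 to 21.3, 24.7 to 31.2 and 24.1 to 32.1. Hepatocyte markers stayed between 0.47 and 1.18 FPKM in every library. Of exocrine pancreas markers (3 of 5 found), the sum was between 4.19 and 12.06, nearly all of it Cela1. Lymphocyte markers were thus lowest in SAP libraries 1 and 2 within the SAP group.

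The receptors upstream of CARD9 took the opposite course. Clec7a, encoding Dectin-1, a receptor for fungal glucans, had 0.09, 0.19 and 0.11 FPKM in the control group, 1.26, 1.45, 1 and 0.60 in the SAP group and 1.15, 1.39, 2.3 and 1.40 in the JZL184 group. Clec4e, encoding Mincle, a receptor for mycobacterial and fungal glycolipids, had 0.00, 0.02 and 0.05 FPKM in the control group, 1.92, 0.44, 1.91 and 0.27 in the SAP group and 0.93, 2.00, 1.08 and 1.37 in the JZL184 group. Both rose from the control to the JZL184 group, Clec7a by 3.58 ± 0.47 on the log2 scale (edgeR adjusted p = 0.0167) and Clec4e by 5.51 ± 0.85 (edgeR adjusted p = 0.0239). In the SAP group their log2 fold changes were 2.90 ± 0.47 and 5.08 ± 1.24, with edgeR adjusted p of 0.219 and 0.459, and between the JZL184 and SAP groups the values of both overlapped.

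The partners of CARD9 are named after their values were seen. Bcl10, which forms a complex with it, had 31.84 to 32.88 FPKM in the control group, 29.16 to 53.66 in the SAP group and 31.81 to 49.08 in the JZL184 group. Malt1, the protease of the same complex, had 0.24 to 0.43, 0.44 to 1.15 and 0.41 to 1.12 FPKM. Syk, the kinase that couples the receptors to CARD9, had 5.49 to 8.14, 5.55 to 14.22 and 3.35 to 8.09 FPKM, with its 2 highest values in SAP libraries 1 and 2. None of these 3 passed the edgeR test in any comparison, and the log2 fold change of Syk between the JZL184 and SAP groups was -0.86 ± 0.34 (edgeR adjusted p = 0.198). Of the 5 tested genes of the CARD9 branch other than Card9, edgeR thus called 2 higher for JZL184 against control, beside 1.02% of all genes. The log2 fold change was above 0 for 4 of the 5, with 1.17 ± 0.42 for Malt1 (edgeR adjusted p = 0.131). At an unadjusted edgeR p below 0.05, 3 of the 5 were higher, beside 13.8% of all genes.

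**Figure D4:**
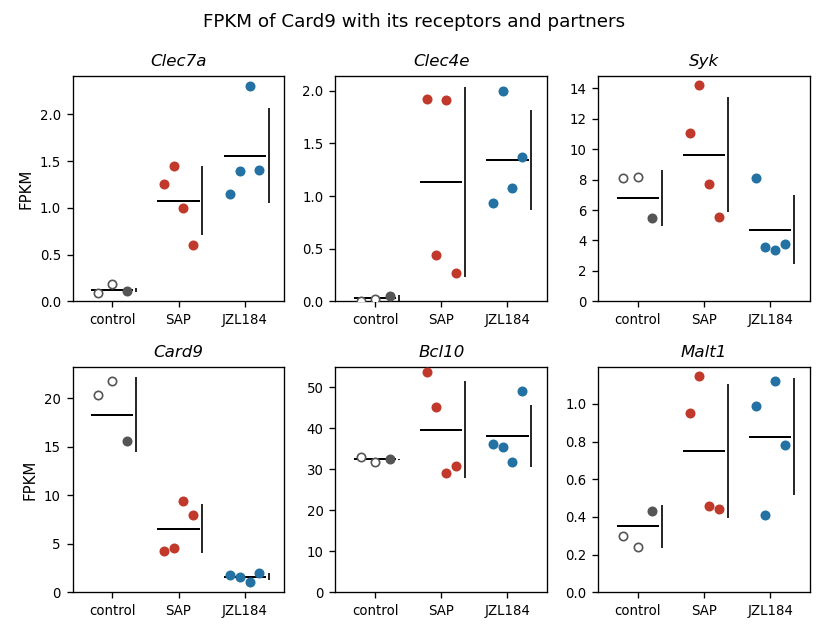
FPKM of Card9 with the receptors Clec7a and Clec4e, the kinase Syk and the partners Bcl10 and Malt1 in each library, with the mean (line) and SD (vertical bar) of the samples used and control libraries 1 and 2 as open circles. Clec7a and Clec4e lie at or below 0.19 FPKM in the control group and at or above 0.27 in the other groups, while Card9 descends over the groups and Bcl10 overlaps in all of them.

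Of the inflammasome, Nlrp3, its best known sensor, had 0.39, 0.20 and 0.50 FPKM in the control group, 0.66, 0.70, 0.68 and 0.48 in the SAP group and 0.51, 0.42, 0.19 and 0.30 in the JZL184 group. The groups overlapped in every comparison on this scale. Its log2 fold changes were 0.53 ± 0.36, -0.63 ± 0.36 and -0.14 ± 0.49 for SAP against control, JZL184 against SAP and JZL184 against control, with edgeR adjusted p of 0.486, 0.323 and 0.88. The last one turned to 0.22 without control library 3. An annotated long non-coding RNA overlaps Nlrp3 in RefSeq.

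Casp1 had 50.69, 48.20 and 60.50 FPKM in the control group, 91.93, 109.92, 90.80 and 57.51 in the SAP group and 33.98, 37.25, 41.24 and 32.51 in the JZL184 group. SAP library 4 fell within the control range, and the other 3 SAP libraries were above it, whereas all JZL184 libraries were below both other groups. The means were 55.0 ± 7.82 (SD, n = 2), 87.5 ± 21.9 (n = 4) and 36.2 ± 3.87 FPKM (n = 4). Between the JZL184 and SAP groups, the log2 fold change was -1.09 ± 0.24 (edgeR adjusted p = 0.0851, DESeq2 adjusted p = 0.00287, limma-voom adjusted p = 0.0331), and it lay between -1.27 and -0.97 over 20 alternatives. Between the SAP and control groups it was 0.49 ± 0.30 (edgeR adjusted p = 0.468), and between the JZL184 and control groups -0.63 ± 0.25 (edgeR adjusted p = 0.16).

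The neighbour of Casp1, Casp4, encodes the caspase that binds lipopolysaccharide inside the cell and opens the non-canonical route to gasdermin D. It had 1.26, 0.92 and 1.54 FPKM in the control group, 7.13, 5.57, 1.48 and 3.02 in the SAP group and 4.28, 3.82, 9.35 and 5.49 in the JZL184 group. All JZL184 values were above all control values, with a log2 fold change of 2.09 ± 0.44 (edgeR adjusted p = 0.0526, DESeq2 adjusted p = 0.000428). Casp1 and Casp4, which lie next to each other in the annotation, thus had opposite signs between the JZL184 and control groups. An annotated long non-coding RNA overlaps Casp1. The authors counted uniquely aligned reads, and how far reads of similar caspase genes were lost or exchanged was not tested.

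Gsdmd, the pore-forming target of both caspases, was abundant and showed no order over the groups. Its FPKM were 163.89, 155.96 and 107.98 in the control group, 80.29, 92.60, 143.80 and 194.89 in the SAP group and 112.37, 96.92, 48.51 and 152.56 in the JZL184 group. The lowest value was in JZL184 library 3, and within the SAP group libraries 1 and 2 were the lowest. The log2 fold changes were -0.21 ± 0.48, -0.18 ± 0.44 and -0.42 ± 0.46 for SAP against control, JZL184 against SAP and JZL184 against control, with edgeR adjusted p of 0.82, 0.824 and 0.587. The first turned to 0.27 without SAP libraries 1 and 2, and the second to 0.53 without SAP libraries 3 and 4.

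**Figure D5:**
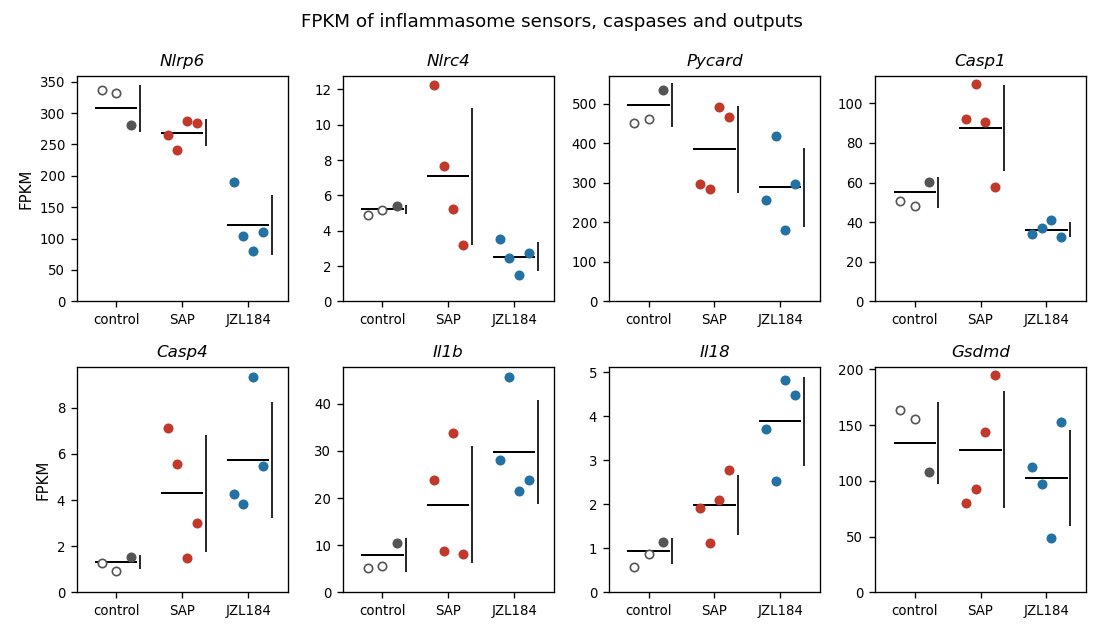
FPKM of the sensors Nlrp6 and Nlrc4, the adaptor gene Pycard, Casp1, Casp4, the cytokine genes Il1b and Il18, and Gsdmd in each library, with the mean (line) and SD (vertical bar) of the samples used and control libraries 1 and 2 as open circles. Nlrp6 and Casp1 have their 4 lowest values in the JZL184 group, whereas Casp4, Il1b and Il18 lie above the control values there, and Gsdmd overlaps in all groups.

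Among the other sensors, Nlrp6 and Nlrc4 had higher levels than Nlrp3 in every library, and Aim2 did not. Nlrp6, a sensor of the intestinal epithelium, had 337.25, 331.71 and 280.94 FPKM in the control group, 264.92, 240.61, 286.84 and 283.87 in the SAP group and 189.73, 104.26, 80.77 and 110.61 in the JZL184 group. Its JZL184 values lay below all others, with log2 fold changes of -1.39 ± 0.36 against the control group (edgeR adjusted p = 0.0734) and -1.01 ± 0.31 against the SAP group (edgeR adjusted p = 0.135). Nlrc4, which works with NAIP proteins that bind flagellin, had 4.88 to 5.40 FPKM in the control group, 3.19 to 12.22 in the SAP group and 1.47 to 3.51 in the JZL184 group (log2 fold change -1.07 ± 0.36 against the control group, edgeR adjusted p = 0.115). Aim2, a sensor of DNA in the cytosol, had 0.17 to 0.41, 0.26 to 0.60 and 0.26 to 0.84 FPKM with overlap in every comparison.

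Pycard, the adaptor between sensors and caspase-1, had 451.22 to 535.58 FPKM in the control group, 284.72 to 492.73 in the SAP group and 181.61 to 419.08 in the JZL184 group. Its log2 fold change between the JZL184 and control groups was -0.78 ± 0.40 (edgeR adjusted p = 0.247). The cytokine genes had higher levels in all JZL184 libraries than in all control libraries. Il18 had 0.58, 0.88 and 1.15 FPKM in the control group, 1.92, 1.12, 2.09 and 2.78 in the SAP group and 3.71, 2.54, 4.83 and 4.48 in the JZL184 group, and it rose by 2.01 ± 0.36 on the log2 scale between the JZL184 and control groups (edgeR adjusted p = 0.0357). Il1b had 5.13 to 10.54, 8.21 to 33.76 and 21.46 to 45.75 FPKM, with a log2 fold change of 1.93 ± 0.48 (edgeR adjusted p = 0.068). Its 2 highest values in the SAP group were in libraries 1 and 3, which were also highest in neutrophil markers.

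Il1a, the gene of a cytokine that needs no cleavage by caspase-1, had 0.04 to 0.11 FPKM in the control group, 0.08 to 0.41 in the SAP group and 0.63 to 1.25 in the JZL184 group. It rose by 3.53 ± 0.57 on the log2 scale between the JZL184 and control groups (edgeR adjusted p = 0.0266). Its log2 fold change for JZL184 against SAP was 1.98 ± 0.46 (edgeR adjusted p = 0.0889). Casp12, the gene of another caspase of the same cluster, had 0.28 to 0.58 FPKM in the control group, 4.51, 5.3, 1.25 and 0.75 in the SAP group and 0.15 to 0.41 in the JZL184 group. Its values in SAP libraries 1 and 2 were above all others, and between the JZL184 and SAP groups the log2 fold change was -3.24 (edgeR adjusted p = 0.0851).

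A list of 78 further genes of bacterial sensing and inflammasomes was read beside these 10. It includes Xiap and Chuk, which the study had chosen from these libraries. Of the list, 74 were in the table and 69 were tested in each comparison. EdgeR called 0 of 69 between the SAP and control groups and 0 of 69 between the JZL184 and SAP groups. It called 6 of 69 for JZL184 against control, all higher, beside 1.02% of all genes called higher. They were Clec7a, Clec4e, Il1a, Il18, Tnfaip3 and, named after its values were seen, Irak3. At an unadjusted p below 0.05, 11 of 69 were higher and 0 lower for SAP against control, beside 5.69% and 3.4% of all genes. The numbers were 9 higher and 11 lower for JZL184 against SAP, beside 10.3% and 11.1%, and 19 higher and 9 lower for JZL184 against control, beside 13.8% and 12.5%. The median log2 fold changes of the list were 0.38, 0.09 and 0.40 in these comparisons, beside 0.06, -0.05 and 0.08 over all genes.

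By role, the 6 genes called between the JZL184 and control groups were 2 of 5 in the CARD9 branch, 2 of 9 among the inflammasome adaptor, caspases and outputs, and 2 of 7 inhibitors. None of the 10 other tested receptors of the Toll family, of the 7 accessory proteins, of the 14 adaptors and kinases, of the 8 NOD receptors and partners or of the 8 inflammasome sensors was called by edgeR, and the 1 peptidoglycan recognition protein tested was not called either. At an unadjusted p below 0.05, these groups had 1 higher and 1 lower, 1 higher and 2 lower, 4 higher and 3 lower, 1 higher and 0 lower, 1 higher and 2 lower, and 1 higher and 0 lower. By the same p, the CARD9 branch had 3 higher and 0 lower. The inflammasome adaptor, caspases and outputs had 5 higher and 0 lower, and the inhibitors 2 higher and 1 lower. DESeq2 called 12 of the list higher and 2 lower in this comparison, beside 5.8% and 4.99% of all genes. It called 4 higher and 0 lower for SAP against control, beside 0.86% and 0.365%, and 3 higher and 6 lower for JZL184 against SAP, beside 3.57% and 3.41%. These roles are small, and their counts are a description.

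The 2 inhibitors that edgeR called higher for JZL184 against control act on the same signals as Myd88. Tnfaip3, which encodes A20, an enzyme that limits nuclear factor kB signaling, had 0.82, 0.78 and 1.25 FPKM in the control group, 4.15, 2.63, 1.41 and 1.09 in the SAP group and 5.87, 7.88, 19.09 and 16.37 in the JZL184 group. It rose by 3.56 ± 0.58 on the log2 scale between the JZL184 and control groups (edgeR adjusted p = 0.0279). For JZL184 against SAP its log2 fold change was 2.61 ± 0.49 (edgeR adjusted p = 0.0817), and no values overlapped. Irak3 encodes an inactive kinase that restrains MYD88 signaling. It had 0.25 to 0.30 FPKM in the control group, 0.45 to 0.90 in the SAP group and 0.76 to 1.55 in the JZL184 group. Irak3 rose by 2.06 ± 0.36 between the JZL184 and control groups (edgeR adjusted p = 0.0357). Sigirr, another listed inhibitor named after its values were seen, went the other way. Its FPKM were 3.12 to 3.69 in the control group, 1.92 to 3.72 in the SAP group and 0.80 to 2.83 in the JZL184 group. The log2 fold change of Sigirr between the JZL184 and control groups was -1.08 ± 0.45 (edgeR adjusted p = 0.171, limma-voom adjusted p = 0.0327).

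Of the other Toll-like receptors, none passed the edgeR test. Tlr3, a receptor for double-stranded RNA, had 2.43 to 2.80 FPKM in the control group, 2.55 to 5.05 in the SAP group and 1.65 to 3.42 in the JZL184 group. Tlr5, the flagellin receptor, had 2.22 to 2.69, 2.24 to 3.39 and 0.51 to 4.01 FPKM. On this length-scaled measure, both were thus above Tlr2 and Tlr4 in the control group. Tlr9, a receptor for bacterial DNA, was at most 0.14 FPKM and listed at 0 in 6 of the 11 libraries. Tlr8, a receptor for single-stranded RNA, had 0.04 to 0.13 FPKM in the control group, 0.53, 0.94, 0.29 and 0.27 in the SAP group and 0.09 to 0.24 in the JZL184 group, with a log2 fold change of 2.21 ± 0.65 for SAP against control (edgeR adjusted p = 0.459). Tlr12, a receptor of the mouse and rat that binds a protozoan protein, had 0.56 to 0.96 and 0.90 to 1.21 FPKM in the control and SAP groups and 0.03 to 0.21 in the JZL184 group, with a log2 fold change of -3.00 ± 0.53 between the JZL184 and SAP groups (edgeR adjusted p = 0.0693, DESeq2 adjusted p = 1.23e-06).

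Further partners did not pass the edgeR test in any comparison. Ly96, which encodes the lipopolysaccharide-binding subunit of the TLR4 receptor, had 0.99 to 1.05 FPKM in the control group, 0.98 to 2.22 in the SAP group and 1.02 to 2.65 in the JZL184 group. Ticam1, the adaptor gene of TLR3 and of the second branch of TLR4, had 17.58 to 21.08, 11.77 to 19.17 and 2.72 to 14.22 FPKM, with a log2 fold change of -1.36 ± 0.53 between the JZL184 and control groups (edgeR adjusted p = 0.153). Nod1, the other peptidoglycan receptor of this class, had 2.73 to 3.18, 2.79 to 3.22 and 2.54 to 3.99 FPKM, and its log2 fold changes lay between -0.10 and 0.23. Nlrp12, a regulator of the same family, was listed at 0 FPKM in all control libraries, at 0.02, 0.03, 0.06 and 0 in the SAP libraries and at no more than 0.03 in the JZL184 libraries. For SAP against control its edgeR adjusted p was 0.459 and its DESeq2 adjusted p 0.0453, no fold is given because the control libraries held no reads of it, and it did not pass the filter in the other comparisons.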

How the data were processed

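Stranded mRNA libraries of ileum were analysed, labelled as 3 control, 4 SAP and 4 JZL184 samples. After trimming and alignment with HISAT2 to mRatBN7.2, the authors deposited counts of reads per gene, not normalized, and a table of FPKM with 2 decimals. The annotation and the counting tool, with its use of strand, were not given in the sources used here.

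Counts of all genes entered edgeR 4.0.16 (R 4.3.3), with its quasi-likelihood test, after TMM normalization and the default filter (minimum count 10), with Benjamini-Hochberg adjustment over all genes tested. A call required an adjusted p under 0.05 together with a fold over 2 or under 0.5. Reads of control libraries 1 and 2 were summed and their FPKM averaged. Alternatives were DESeq2 1.42.0 (the tool of the study), limma 3.58.1 (voom, sample quality weights), no fold threshold, DESeq2's size factors, no filter, at least 10 reads in every library, 3 groups in 1 fit, separate control libraries, the replicate block, gene length offsets, SAP libraries 1 and 2 or 3 and 4 left out, and each sample left out. FPKM of single genes were compared with two-sided exact permutation tests, also on log2(FPKM + 1) and log2(FPKM + 0.1). The scripts were tested on simulated data. Means are given with SD and log2 fold changes with SE. Precision is set by the spread between libraries, with n = 2 control samples. The labels do not say which rat each library came from, so p-values measure the spread between these samples.

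The 10 genes and all lists were chosen with earlier results of these data known. Of the pathway list, the 4 genes with the smallest edgeR p per comparison and 13 further genes are named, except where said to be named after their values were seen. Marker lists were for neutrophils, monocytes and macrophages, dendritic cells, epithelium, ileal enterocytes, T cells, B and plasma cells, endothelium, fibroblasts, smooth muscle, hepatocytes and exocrine pancreas. The sources do not say that the replicate numbers of the labels pair the samples, and the main tests were unpaired.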

Additional observations from a re-analysis of the deposited data

Results flagged for a closer look

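Nod2 in SAP library 3 had 0.06 FPKM, whereas the other 3 SAP libraries had 0.08, so that this library lay apart from its group by the whole range of the group. The reads behind these values were 16 against 24 to 28, and the deposited FPKM have 2 decimals. Over the 20 groups of 4 libraries looked at (10 genes in the SAP and JZL184 groups), chance alone flags about 1 in 20.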

How the results depend on the processing

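The number of the 10 genes called depended on the tool and on the treatment of the libraries, and so did the number over all genes, which is given beside each. Between the SAP and control groups it was 0 (0 of all genes), and it became 3 (Tlr4, Lbp and Card9; 1434) with DESeq2 and control libraries 1 and 2 as separate samples, and 2 (Tlr4 and Card9; 5859) without SAP libraries 3 and 4. Between the JZL184 and SAP groups it was 0 (0), and it became 2 (Card9 and Casp1) with DESeq2 (1283), with limma-voom (699), with all 3 groups in 1 fit (207) and without SAP libraries 3 and 4 (2912). Between the JZL184 and control groups it was 1 (343), and it became 3 with DESeq2 (1899), 4 with limma-voom (2906), 5 with separate control libraries (2800) and 6 with DESeq2 and separate control libraries (3498). Leaving out 1 sample at a time gave between 0 and 3, namely 0 without the merged control sample (0), 0 without control library 3 (1) and 3 without JZL184 library 1 (Cd14, Lbp and Card9; 1867). The cause was not tested.

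Card9 kept its direction in all alternatives, with a log2 fold change between -2.35 and -1.15 in SAP against control, -2.37 and -1.18 in JZL184 against SAP and -3.82 and -3.25 in JZL184 against control. The adjusted p of Card9 lay between 0.00119 and 0.943, 0.000622 and 0.217, and 1.58e-25 and 0.192 in these comparisons, and that of Casp1 in JZL184 against SAP between 0.00287 and 0.217. It lay between 0.0105 and 0.943 for Tlr4 in SAP against control. In JZL184 against control, the edgeR, DESeq2 or limma-voom adjusted p lay between 0.00902 and 0.618 for Tlr2, 0.000783 and 0.589 for Lbp and 0.00211 and 0.603 for Nod2. Signs turned for genes that were not called. In SAP against control, leaving out 1 sample gave between -0.56 and 0.18 for Gsdmd, -0.01 and 0.32 for Myd88 and -0.014 and 0.54 for Cd14, Gsdmd had 0.27 without SAP libraries 1 and 2, and Cd14 had -0.43 without SAP libraries 3 and 4. In JZL184 against SAP, leaving out 1 sample gave between -0.45 and 0.17 for Gsdmd and -0.30 and 0.019 for Tlr4. Gsdmd had 0.026 with limma-voom and 0.53 without SAP libraries 3 and 4, and Tlr4 had 0.23 without SAP libraries 1 and 2. In JZL184 against control, leaving out 1 sample gave between -0.44 and 0.22 for Nlrp3. Gene length offsets changed SAP against control from 1.17 to 0.69 for Nod2, from 0.53 to 0.13 for Nlrp3 and from 0.49 to 0.79 for Casp1.

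With the replicate block, 0, 0 and 1 of the 10 genes were called in the 3 comparisons, and 147, 0 and 66 of all genes. The correlation of the deviations of same-numbered samples from their group means lay between -0.435 and 0.121. With so few samples, deviations within a group offset each other, so these correlations cannot decide whether a number marks a pair. With 2 control samples and SAP libraries of 2 kinds, differences of low genes such as Nod2, Lbp and Tlr4 were at the limit of what could be tested.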
